A study of Mus musculus with 2 samples.

Results

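Cycling liver endothelial cells are described here as they appeared in 2 droplet libraries of 3′ single-cell RNA sequencing from mouse liver. A cell was counted as cycling when its barcode held at least 1 unique molecular identifier (UMI) of Mki67 and at least 1 of Top2a, so the members were chosen by measured values of these genes. Mki67 encodes the nuclear proliferation antigen Ki-67 and Top2a encodes topoisomerase IIα, which untangles DNA before mitosis. An endothelial barcode had at least 1500 UMIs and 750 genes, at least 2 UMIs of Pecam1, Cdh5 and Ptprb together, 0 UMIs of Ptprc, Adgre1, Cd79a and Dcn together, and 0 UMIs of Vwf, the von Willebrand factor gene of larger vessels. The rule found 62 cycling barcodes among 4157 endothelial barcodes of the control library and 480 among 2969 of the Maf LSEC-KO library, which is 542 of 7126 in all, out of 12755 barcodes of any cell type. They were compared with the resting barcodes, which are the endothelial barcodes with 0 UMIs of Mki67, Top2a and Vwf, numbering 3985 (control) and 1974 (Maf LSEC-KO library).

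The study asked what the transcription factor c-Maf does in liver sinusoidal endothelial cells (LSECs), and the libraries held CD146-selected non-parenchymal cells of a pool of 3 mice each. The control library, labelled WT, came from littermates with Clec4g-iCre wt/wt and Maf fl/fl or Maf fl/wt alleles, and the Maf LSEC-KO library came from mice with Clec4g-iCre tg/wt and Maf fl/fl. The Clec4g promoter drives Cre in LSECs and not in the endothelium of larger vessels. The study used female and male mice of 3 and 6 months, and which of these made up each pool is not given in the sources used here. With 1 library per genotype and 1 pool per library no test between the genotypes was possible, and genotype and library cannot be told apart. The intervals given below are 95% intervals of the counting error only.

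LSECs line the capillaries of the liver. They are open, fenestrated endothelial cells without a continuous basement membrane that clear waste molecules from the blood through scavenger receptors, and they are quiescent in the healthy adult liver. A cell that enters the cycle first switches on the genes of DNA synthesis under E2F transcription factors, and later the genes of G2 and mitosis through promoters that carry CHR and CCAAT elements. Capillarization is the name for the change of LSECs towards a continuous, less specialised endothelium.

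The cycling barcodes were deep. Their UMI totals ran from 1765 to 51590 with a median of 14702 in the control library and from 1603 to 129131 with a median of 23314 in the Maf LSEC-KO library. Resting barcodes had medians of 8376 and 11935 UMIs. The median number of genes detected was 4511 in cycling and 3047 in resting control barcodes, against 5312 and 3665.5 in the Maf LSEC-KO library. Mitochondrial genes took between 3.86% and 4.47% of the UMIs in the 4 sets, while ribosomal protein genes took 7.97% and 7.62% in the control sets and 18.5% and 18.1% in the Maf LSEC-KO sets. For that reason levels are given as CPM, UMI counts scaled to a total of 1000000 with mitochondrial and ribosomal protein genes set aside, summed over the barcodes of a set. The libraries shared 10 barcode sequences. Each UMI marks the 3′ end of a transcript, so levels are compared between sets for 1 gene and not between genes.

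Maf itself, the deleted gene (chr8:115682942-115707794 on mm10, minus strand), separated the libraries in cycling and in resting cells. It stood at 2164 CPM in cycling and 3520.3 CPM in resting control barcodes, and at 29.9 and 186 CPM in cycling and resting Maf LSEC-KO barcodes. A Maf UMI was present in 62 of 62 cycling control barcodes and in 88 of 480 (18.3%) cycling Maf LSEC-KO barcodes. Where the 3′ reads lie relative to the floxed segment was not examined here.

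The endothelial label held in the cycling cells by genes that the rule did not use. Of Tek, Tie1, Kdr, Egfl7, Eng and Cd93, which encode vascular receptors and secreted or surface proteins of endothelium, at least 3 of 6 were detected in 61 of 62 control (98.4%) and 476 of 480 Maf LSEC-KO (99.2%) cycling barcodes. In resting barcodes the shares were 98.8% and 98.1%. Kdr, the main VEGF receptor of endothelium, was detected in 96.8% of cycling control and 99.2% of cycling Maf LSEC-KO barcodes. Markers of other cell types are given further down, beside the identity genes.

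The rule selects on transcripts, so its edge was looked at once. In the control library 2 cycling barcodes held exactly 1 UMI of each gene, 10 held 1 UMI of only one of them and 50 held at least 2 of both. The Maf LSEC-KO library had 28, 65 and 387 of these. Just outside the rule, 39 control barcodes had Mki67 without Top2a and 71 had Top2a without Mki67, against 212 and 303 in the Maf LSEC-KO library. The median barcode inside held 10 Mki67 and 8 Top2a UMIs in the control and 13 and 10 UMIs in Maf LSEC-KO cells. A list of 73 G2 and mitosis genes, which contains neither gene, summed to 18619 CPM in all control members, to 1498 CPM in the 2 with 1 UMI of each, to 2971 and 1526 CPM in the barcodes with Mki67 alone and Top2a alone, and to 1041 CPM in resting barcodes. For the Maf LSEC-KO library the values were 15714, 2366, 2881, 2200 and 1564 CPM in the same order. The barcodes at the edge thus lay nearer to the resting than to the average cycling level, and most members lay well inside.

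Promoters of cycle genes are shown first, since the members of this programme moved together and differ in the words their promoters carry. Each sequence is the 250 bases before the RefSeq transcription start on GRCm38.p6 (mm10), read 5′ to 3′ on the gene's strand. Capitals mark the CHR core TTTGAA, the CCAAT box and the E2F words TTTCCCGC, TTTCGCGC, TTTGGCGC and TTTGCCGC, each on either strand, where overlapping matches run together. Mki67 (chr7:135716380-135716629, minus strand) and Top2a (chr11:99024190-99024439, minus strand) are the genes of the rule. Prc1 (chr7:80294226-80294475, plus strand), which bundles spindle microtubules, and Ube2c (chr2:164769679-164769928, plus strand), which loads ubiquitin for the anaphase-promoting complex, stand for G2 and mitosis. Mcm5 (chr8:75109259-75109508, plus strand) and Mcm6 (chr1:128359706-128359955, minus strand), subunits of the replicative helicase, stand for S phase.
Mki67: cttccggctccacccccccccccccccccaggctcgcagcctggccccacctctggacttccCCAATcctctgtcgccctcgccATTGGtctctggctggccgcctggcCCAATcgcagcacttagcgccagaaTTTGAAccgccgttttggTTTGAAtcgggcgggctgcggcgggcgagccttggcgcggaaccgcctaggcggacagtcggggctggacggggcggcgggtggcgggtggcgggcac
Top2a: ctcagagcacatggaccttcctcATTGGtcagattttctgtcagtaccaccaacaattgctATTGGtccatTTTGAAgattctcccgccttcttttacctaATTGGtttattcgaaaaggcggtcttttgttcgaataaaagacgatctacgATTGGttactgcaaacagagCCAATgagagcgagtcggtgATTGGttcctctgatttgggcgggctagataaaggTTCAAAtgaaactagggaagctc
Prc1: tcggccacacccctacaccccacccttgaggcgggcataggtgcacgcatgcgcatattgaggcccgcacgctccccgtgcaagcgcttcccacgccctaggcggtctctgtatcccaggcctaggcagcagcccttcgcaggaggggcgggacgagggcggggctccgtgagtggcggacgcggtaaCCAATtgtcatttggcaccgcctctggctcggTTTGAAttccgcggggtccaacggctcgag
Ube2c: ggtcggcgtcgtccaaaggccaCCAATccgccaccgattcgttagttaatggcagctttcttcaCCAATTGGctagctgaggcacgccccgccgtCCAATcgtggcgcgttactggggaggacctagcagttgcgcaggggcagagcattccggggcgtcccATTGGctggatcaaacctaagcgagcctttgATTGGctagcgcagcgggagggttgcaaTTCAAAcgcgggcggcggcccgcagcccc
Mcm5: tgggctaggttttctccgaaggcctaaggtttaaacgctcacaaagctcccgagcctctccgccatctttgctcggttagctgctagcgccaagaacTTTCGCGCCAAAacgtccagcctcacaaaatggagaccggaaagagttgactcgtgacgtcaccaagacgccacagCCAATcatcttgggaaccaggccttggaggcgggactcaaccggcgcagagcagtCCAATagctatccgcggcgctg
Mcm6: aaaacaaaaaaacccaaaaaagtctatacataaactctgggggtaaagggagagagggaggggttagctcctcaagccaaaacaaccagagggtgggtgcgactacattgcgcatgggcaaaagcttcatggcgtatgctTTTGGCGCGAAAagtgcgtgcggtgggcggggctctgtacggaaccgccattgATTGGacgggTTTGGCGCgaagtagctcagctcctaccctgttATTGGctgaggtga

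The Mki67 and Top2a windows each held 2 CHR cores, with 3 and 6 CCAAT boxes, and no E2F word. The Prc1 and Ube2c windows each held 1 CHR core, with 1 and 6 CCAAT boxes. The 250 bases before another RefSeq start of Prc1 (chr7:80294201-80294450) held the CCAAT box but 0 whole CHR cores, since that core runs past the window's end. The Mcm5 and Mcm6 windows held 2 and 3 E2F words, 2 CCAAT boxes each and no CHR core. In each, 2 of the E2F words overlapped on opposite strands in 1 stretch, as did 2 of the CCAAT boxes of Ube2c. Over windows that add the first 50 transcribed bases, the CHR core stood in 65.6% of those of G2 and mitosis genes (42 of 64 windows, 59 genes), in 14.0% of those of S-phase genes (6 of 43 windows, 35 genes) and in 17.9% of all 32851 mouse promoter windows. A CCAAT box stood in 75%, 58.1% and 37.4% of the same windows. An E2F word stood in 7.81% of G2 and mitosis windows, in 34.9% of S-phase windows and in 2.26% of all windows. The printed windows are examples picked from the lists, and most S-phase windows held no E2F word. Those of Pcna and Rrm2 held a CCAAT box and no E2F word. The window of Birc5, another mitotic gene, held none of these words and is not printed. These matches describe letters in a window and are not evidence of binding.

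Among endothelial barcodes without Vwf, 1.49% of control cells (1.15% to 1.91%) and 16.2% of Maf LSEC-KO cells (14.9% to 17.5%) were cycling. Detection of Mki67 and Top2a depends on depth, and the libraries differed in depth. After every endothelial barcode was thinned to 3000 UMIs, the shares were 1.2% (0.874% to 1.61%) and 10.5% (9.35% to 11.7%), with 492 and 198 shallower barcodes left out. In the same barcodes before thinning they were 1.58% and 16.8%. The intervals of the libraries lay apart at either depth, but they cover counting error only. With 1 library per genotype they do not measure a difference between genotypes. As a control for free RNA, lymphocyte barcodes (at least 5 UMIs of B, T and NK cell genes and none of Cdh5 and Ptprb) were read in the same way. In the control library 0 of 26 held Mki67 (upper limit 13.2%) and 1 of 26 held Top2a, while 3 and 7 of 47 Maf LSEC-KO lymphocyte barcodes did, and whether those cells were cycling themselves was not tested.

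Within the Maf LSEC-KO library the share of cycling barcodes was lowest where at least 5 Maf UMIs were present. It was 6.03% (3.15% to 10.3%, 12 of 199) among those barcodes, 17.6% (76 of 433) among those with 1 to 4 and 16.8% (392 of 2337) among those with 0. Thinned to 3000 UMIs, these shares were 3.65%, 8.71% and 11.4%. The 3 strata had median totals of 9928, 16709 and 13636 UMIs. Control barcodes with at least 5 Maf UMIs were cycling in 1.41% (53 of 3771), those with 1 to 4 in 2.5% (9 of 360) and those with 0 in 0 of 26. Thinned to 3000 UMIs, the control shares were 1.08% (38 of 3510), 4.14% (6 of 145) and 0 of 10, so in the control too the share was lower at 5 or more Maf UMIs than at 1 to 4. Seen from the other side, 2.50% of cycling and 8.56% of resting Maf LSEC-KO barcodes held at least 5 Maf UMIs. A Maf UMI was also found in 10 of 47 Maf LSEC-KO (21.3%) and 8 of 26 control lymphocyte barcodes. Whether those cells expressed Maf or held it as free RNA was not tested, so a few Maf UMIs need not mean kept expression. Cells of 1 library are not replicates, and the part of depth in the differences between the strata was not tested beyond the thinned shares.

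The cell-cycle programme was read within each library first. Both cycling sets passed the same limits of Mki67 and Top2a, so a like level of cycle genes in them is partly set by the rule. The contrast of cycling with resting barcodes was used by the rule, so its counts are a description. Of 4609 genes with at least 50 CPM in either control set, 470 (10.2%) were at least 2-fold higher and 69 (1.5%) at least 2-fold lower in cycling barcodes. Of 4555 genes in the Maf LSEC-KO library, 303 (6.65%) were higher and 16 (0.351%) lower. The median log2 ratio over all genes tested was 0.06 and -0.03. Outside mitochondrial and ribosomal protein genes, the 121 cycle genes of both lists with Mki67 and Top2a took 2.75% of UMIs in cycling control barcodes. The share was 0.183% in resting control barcodes, and 2.37% and 0.260% in cycling and resting Maf LSEC-KO barcodes.

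Genes of S phase and DNA replication were higher in cycling barcodes as a group. All 33 genes tested in the control and all 36 tested in the Maf LSEC-KO library were at least 2-fold higher, with median log2 ratios of 3.26 and 2.70. Mcm5 stood at 137 CPM in cycling and 13.9 CPM in resting control barcodes and at 154 and 25.6 CPM in the Maf LSEC-KO library, a log2 ratio of 3.30 and 2.59. Pcna, the sliding clamp of DNA polymerase, was at 626 and 93.7 CPM in the control and at 500.3 and 100.3 CPM in the Maf LSEC-KO library. Rrm2, the subunit of ribonucleotide reductase that supplies deoxynucleotides in S phase, was close to absent from resting cells, with 179.6 against 0.471 CPM in the control and 181 against 2.54 CPM in the Maf LSEC-KO library. The thymidylate enzymes Tyms and Tk1 followed the same pattern, Tyms at 191 and 9.42 CPM in the control and 207 and 26.3 CPM in the Maf LSEC-KO library. The histone H1 gene Hist1h1b, a replication-dependent gene whose messages mostly lack poly(A) tails and are only partly caught by this chemistry, was at 433 and 0.408 CPM and at 609 and 5.49 CPM.

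Genes of G2 and mitosis were the most contrasted group. Of 68 genes tested in the control, 67 were at least 2-fold higher and 1 lower, with a median log2 ratio of 6.97, and of 67 tested in the Maf LSEC-KO library 65 were higher and 0 lower, with a median of 5.13. Cenpf, a kinetochore protein, was at 950.4 CPM in cycling and 2.61 CPM in resting control barcodes and at 621 and 9.73 CPM in the Maf LSEC-KO library. Prc1 was at 647 and 0.722 CPM in the control and at 409.6 and 6.29 CPM in the Maf LSEC-KO library. Birc5, the survivin gene of the chromosomal passenger complex, was at 309 and 0.534 CPM and at 305 and 4.94 CPM. Each was close to absent from resting cells, but the resting Maf LSEC-KO barcodes held more of each than the resting control barcodes. Ccnb1, the mitotic cyclin, was at 100.4 and 0.534 CPM in the control and 82.3 and 1.65 CPM in the Maf LSEC-KO library. The exception was Pttg1, the securin gene, at 35.7 and 73.4 CPM in the control (log2 ratio -1.04) and at 58.7 and 79.6 CPM in the Maf LSEC-KO library (-0.44). Against resting barcodes with at most 1 UMI of the G2 and mitosis list, a small and shallow set, its control log2 ratio turned to 0.89.

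Set against each other, the cycling barcodes of the libraries, chosen by the same rule, had few of these genes at least 2-fold apart. Among all genes tested between them, 5.35% were higher and 5.02% lower in the Maf LSEC-KO library. Of 37 S-phase genes tested between them, 0 were at least 2-fold apart, and the median log2 ratio (Maf LSEC-KO over control) was 0.09. Of 68 G2 and mitosis genes, 59 were lower in the Maf LSEC-KO library but only Ect2, the exchange factor that starts cytokinesis, was at least 2-fold lower, and the median log2 ratio was -0.31. Ect2 stood at 144 CPM in control and 68.8 CPM in Maf LSEC-KO cycling barcodes, a log2 ratio of -1.06 (-1.34 to -0.78), which was -0.82 when each barcode had the same weight. Prc1 had a log2 ratio of -0.66 and Cenpf of -0.61. The list total was 18619 against 15714 CPM, while that of the S-phase list was 5906 against 5869.5 CPM.

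**Figure D1:**
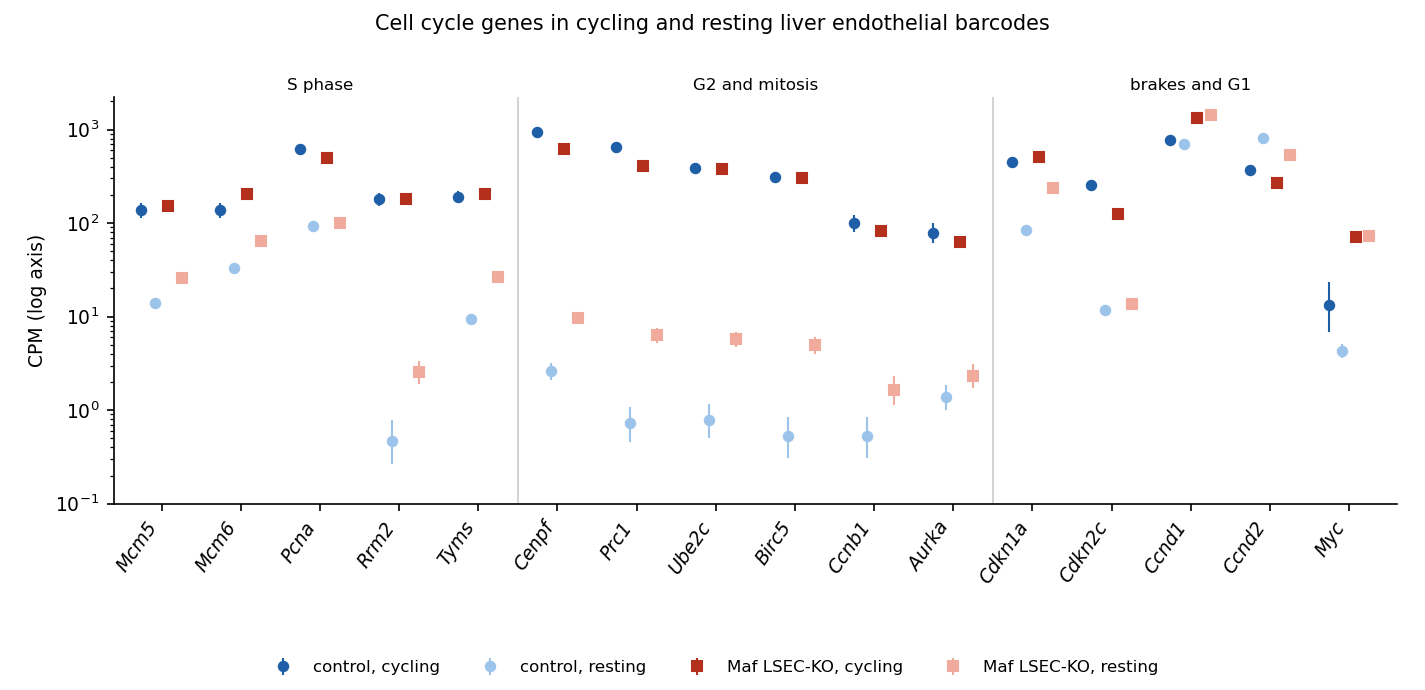
Levels of S-phase, G2 and mitosis, and G1 or brake genes in CPM (log axis) in cycling and resting endothelial barcodes of the control (blue circles) and Maf LSEC-KO (red squares) libraries, with resting sets in pale colours and bars for 95% Poisson intervals of the counts. Prc1 runs from 0.722 CPM in control resting to 647 CPM in control cycling barcodes, whereas Ccnd1 stays between 701 and 1446 CPM and is set apart by library.

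The cycling barcodes covered both S phase and G2 or mitosis. After thinning to 8000 UMIs, 47 control barcodes (15 shallower ones left out) held a median of 45 S-phase UMIs (3 to 112) and 100 G2 and mitosis UMIs (5 to 321). From the Maf LSEC-KO library, 408 barcodes (72 left out) held medians of 36 (1 to 98) and 82.5 (4 to 388). Resting barcodes held medians of 5 S-phase UMIs in both libraries and 7 and 9 G2 and mitosis UMIs. More S-phase than G2 and mitosis UMIs were found in 14 control barcodes (29.8%, 17.3% to 44.9%) and 105 Maf LSEC-KO barcodes (25.7%, 21.6% to 30.3%), and without thinning the shares were 24.2% and 25%. The intervals overlap widely. The balance is a range of a score and not a cell type, and 3 and 55 barcodes lay within 5 UMIs of equality.

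**Figure D2:**
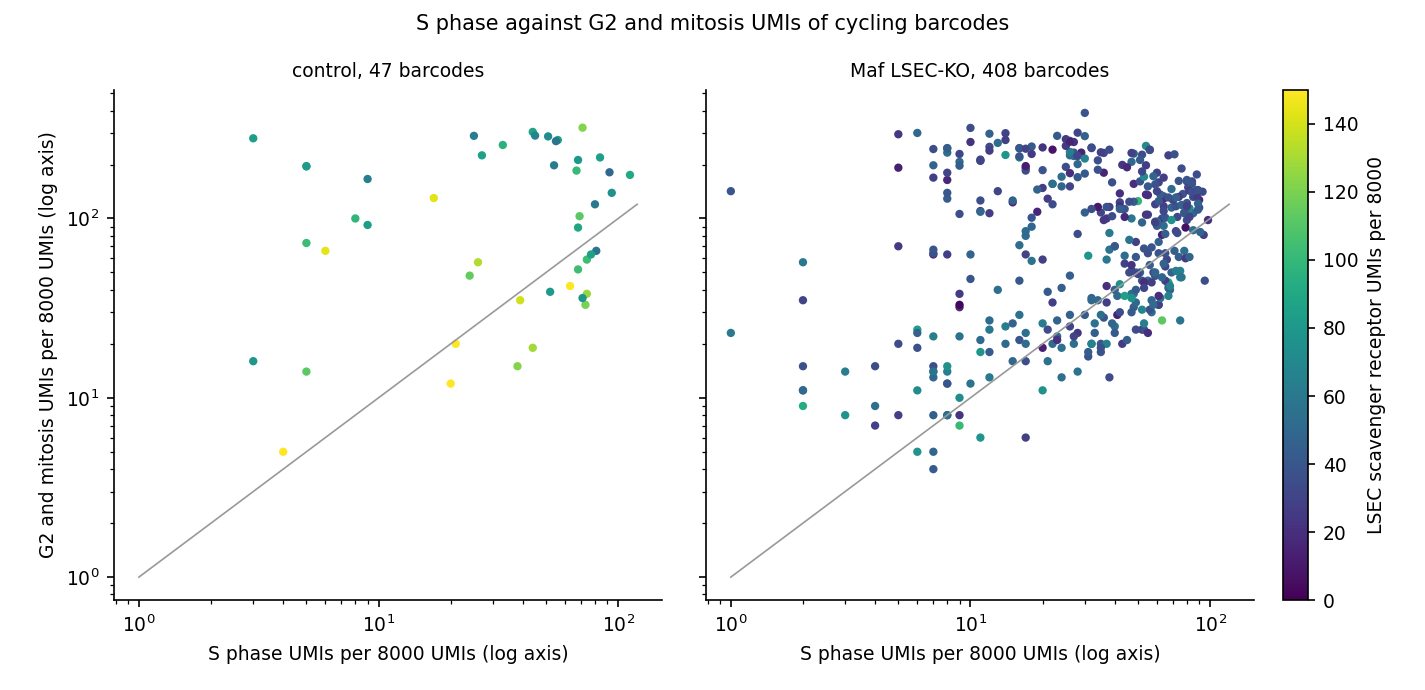
UMIs of the S-phase list (horizontal, log axis) and of the G2 and mitosis list (vertical, log axis) per cycling barcode thinned to 8000 UMIs, 47 control and 408 Maf LSEC-KO barcodes, coloured by UMIs of LSEC scavenger receptor genes. The line marks equal counts. Both libraries spread over the same range, and the scavenger counts of the control barcodes (median 90) lie above those of the Maf LSEC-KO barcodes (median 40).

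Genes that start or brake the cycle did not move as a block. Of 24 genes tested in each library, 8 were at least 2-fold higher and 1 lower in cycling control barcodes (median log2 ratio 0.28), and 7 were higher and 0 lower in the Maf LSEC-KO library (median 0.04). Among all genes tested, 10.2% were higher and 1.5% lower in the control, and 6.65% and 0.351% in the Maf LSEC-KO library. Cdkn1a, which encodes the cyclin-dependent kinase inhibitor p21, was higher in cycling barcodes of both libraries. It stood at 453 CPM in cycling and 84.4 CPM in resting control barcodes (log2 ratio 2.42, 2.27 to 2.57) and at 504 and 239 CPM in the Maf LSEC-KO library (1.08, 1.02 to 1.13), where the ratio was 0.98 in barcodes with 10000 to 30000 UMIs. At 3000 UMIs a Cdkn1a UMI was found in 56.9% of cycling and 12.4% of resting control barcodes, and in 61.4% and 30.7% of Maf LSEC-KO barcodes. The cycling cells of the libraries therefore lay close together and the resting cells apart. Cdkn2c, the p18 inhibitor of CDK4 and CDK6, was at 253 and 11.8 CPM in the control and 126 and 13.6 CPM in the Maf LSEC-KO library. Cdkn2a, the Ink4a/Arf locus, was at 53.5 and 5.56 CPM and at 63.0 and 30.2 CPM. Of 8 and 11 p53 target genes tested, Cdkn1a was the only gene at least 2-fold higher in either library.

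The D-type cyclins, which carry growth signals into G1, went separate ways. Ccnd1 was at 779.7 CPM in cycling and 701 CPM in resting control barcodes and at 1314 and 1446 CPM in the Maf LSEC-KO library, so it differed by library and little by cycling. Ccnd2 was lower in cycling barcodes, at 368 against 806 CPM in the control (log2 ratio -1.13) and 268 against 530.3 CPM in the Maf LSEC-KO library (-0.98). Myc, the growth-promoting transcription factor, stood at 13.4 and 4.27 CPM in the control and at 71.8 and 72.2 CPM in the Maf LSEC-KO library, again with a gap between the libraries that was present in resting cells too. The repressors E2f7 and E2f8, which shut down E2F targets late in S phase, were higher in cycling barcodes, E2f7 at 173 and 17.2 CPM in the control and 89.4 and 25.4 CPM in the Maf LSEC-KO library. Cdkn1c, which encodes the inhibitor p57, was at 51.3 and 77.7 CPM in the control and 8.94 and 21.3 CPM in the Maf LSEC-KO library.

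Growth metabolism was higher in part of its genes. Of the nucleotide synthesis genes, 8 of 14 in the control and 6 of 15 in the Maf LSEC-KO library were at least 2-fold higher in cycling barcodes. The mitochondrial folate enzyme Mthfd2 was at 50.2 and 3.14 CPM in the control and at 62.1 and 7.28 CPM in the Maf LSEC-KO library. Of the ribosome biogenesis genes, 3 of 13 and 0 of 19 were at least 2-fold higher, and of the glycolysis genes 0 of 9 and 0 of 10. Between the cycling barcodes of the libraries, 9 of 19 ribosome biogenesis genes were at least 2-fold higher in the Maf LSEC-KO library, with a median log2 ratio of 0.99. In resting barcodes 11 of 17 were, with a median of 1.23. Of all genes tested, 5.35% and 6.14% were higher in these comparisons. Npm1, a nucleolar chaperone of ribosome assembly, stood at 398 and 313 CPM in control and at 1131 and 859 CPM in Maf LSEC-KO cycling and resting barcodes.

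LSEC identity genes were present in cycling cells at somewhat lower CPM than in resting cells. Counts of genes at least 2-fold lower stand beside 1.5% of all genes tested in the control and 0.351% in Maf LSEC-KO barcodes. Of 14 scavenger and endocytic receptors tested, 1 was at least 2-fold lower in cycling control barcodes and 0 in Maf LSEC-KO barcodes, with median log2 ratios of -0.32 and -0.49. Of the secreted and marker genes of LSECs, 1 of 21 and 2 of 19 were at least 2-fold lower, with a median of -0.60 in both libraries. Of 27 and 26 LSEC and endothelial transcription factors, 0 and 1 were lower (medians -0.16 and -0.19), and of 25 general endothelial genes tested in each library 0 were lower or higher (medians -0.20 and -0.23). Genes at least 2-fold higher in cycling barcodes took 9.22% of UMIs in cycling and 2.04% in resting control barcodes, and 6.16% and 1.32% in the Maf LSEC-KO library. The CPM of all other genes share the remainder.

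The scavenger receptors are the functional signature of LSECs. Stab2, a hyaluronan scavenger receptor, stood at 1117 CPM in cycling and 1639 CPM in resting control barcodes (log2 ratio -0.55, -0.65 to -0.46) and at 138 and 207 CPM in the Maf LSEC-KO library (-0.58, -0.67 to -0.49). Fcgr2b, the Fc receptor that takes up immune complexes, was at 1642 and 2523 CPM in the control and at 151 and 279.9 CPM in the Maf LSEC-KO library. Mrc1, the mannose receptor, was at 2229.8 and 2572 CPM and at 582 and 799 CPM. For these receptors the step between the libraries was larger than the step between cycling and resting cells. Lyve1, a hyaluronan receptor shared with lymphatic endothelium, was not lower in cycling cells, at 756 against 709 CPM in the control and 421 against 374 CPM in the Maf LSEC-KO library. Msr1, the class A scavenger receptor, was the receptor at least 2-fold lower in the control, at 146 against 376 CPM (log2 ratio -1.36, -1.62 to -1.11), and stood at 67.1 against 112 CPM in the Maf LSEC-KO library.

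Per barcode the picture was different, because cycling barcodes held more UMIs. The scavenger list summed to 14163 CPM in cycling and 19663 CPM in resting control barcodes, but to 205 and 157 UMIs per barcode. In the Maf LSEC-KO library it summed to 6671 and 9174 CPM and to 132 and 93.1 UMIs per barcode. Selenop, the secreted selenium carrier, stood at 5556 and 9989.7 CPM in the control, while the mean barcode held 80.3 UMIs when cycling and 79.8 when resting. For the Maf LSEC-KO library it was at 1059 and 1902 CPM, or 21.0 and 19.3 UMIs per barcode. A UMI total reflects both the RNA content of a cell and its capture, and these cannot be told apart here.

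Dnase1l3, which encodes a DNA-degrading enzyme released by LSECs, had the lowest ratio of Maf LSEC-KO to control among the 21 secreted and marker genes tested in cycling barcodes. It stood at 2302 CPM in cycling and 3654 CPM in resting control barcodes and at 24.8 and 188 CPM in the Maf LSEC-KO library, with log2 ratios of cycling to resting of -0.67 and -2.92 (-3.11 to -2.73). Among Maf LSEC-KO barcodes with 0 Maf UMIs the latter ratio was -0.64. At 3000 UMIs a Dnase1l3 UMI was found in 96.6% of cycling and 99.4% of resting control barcodes and in 3.86% of cycling and 11.4% of resting Maf LSEC-KO barcodes. Lymphocyte barcodes, which should lack it, held one in 3 of 23 (control) and 0 of 45 (Maf LSEC-KO, upper limit 7.87%) at the same depth. The part of free RNA in the cycling Maf LSEC-KO share was not tested. Before thinning, with medians of 23314 and 11935 UMIs, the Maf LSEC-KO shares were 11.3% and 16.6%.

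Tcn2, the vitamin B12 carrier transcobalamin, behaved alike, at 435 and 698 CPM in the control and 19.5 and 63.6 CPM in Maf LSEC-KO barcodes, for which the log2 ratio was -1.71 in all and -1.03 in barcodes with 0 Maf UMIs. Adam23, a surface protein that binds integrins, was the gene at least 2-fold lower in the control, at 467 and 1082 CPM (log2 ratio -1.21), against 146 and 265 CPM in the Maf LSEC-KO library. Coagulation factor VIII, F8, which the liver's endothelium supplies to the blood, was at 1357 and 1892 CPM and at 535 and 812 CPM. Clec4g, the lectin gene whose promoter drives the Cre, was at 1780.2 and 3064 CPM in the control and at 1116 and 1707 CPM in the Maf LSEC-KO library. Not all markers followed, since Oit3 and Tinagl1 stood at similar CPM in all 4 sets, Tinagl1 at 898, 930.0, 1031 and 1096 CPM in control cycling, control resting, Maf LSEC-KO cycling and Maf LSEC-KO resting barcodes.

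**Figure D3:**
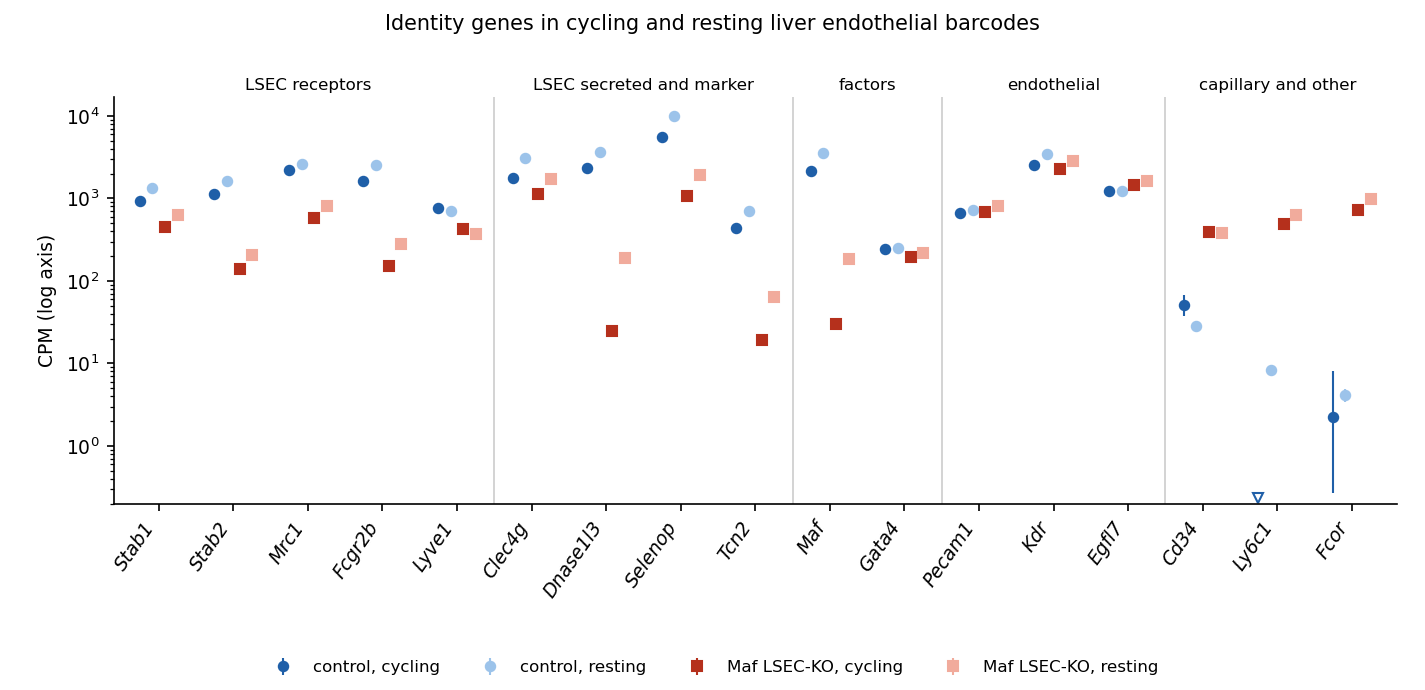
Levels of scavenger receptor, secreted, transcription factor, general endothelial and capillary genes in CPM (log axis) in cycling and resting barcodes of the control (blue circles) and Maf LSEC-KO (red squares) libraries, resting sets pale, with 95% Poisson intervals. Stab2 moves from 1639 to 1117 CPM with cycling in the control and stands at 207 and 138 CPM in the Maf LSEC-KO library, while the open triangle marks 0 Ly6c1 UMIs in control cycling barcodes.

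Transcription factors of liver endothelium other than Maf changed little with cycling. Gata4, the factor needed for LSEC development, stood at 247 CPM in cycling and 253 CPM in resting control barcodes and at 197 and 218 CPM in the Maf LSEC-KO library. Nr2f2, the venous factor COUP-TFII, was at 812 and 1056 CPM and at 705 and 947 CPM. Maf in control barcodes had a log2 ratio of cycling to resting of -0.70 (-0.77 to -0.64). In the Maf LSEC-KO library the ratio was -2.64 (-2.82 to -2.47), and there a Maf UMI was found in a minority of barcodes. The part of free RNA in these was not tested.

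Of 25 general endothelial genes tested between the libraries, 0 were at least 2-fold higher in Maf LSEC-KO barcodes, and 2 were at least 2-fold lower in cycling and 3 in resting ones. Among all genes tested, 5.35% were higher and 5.02% lower in cycling barcodes, and 6.14% and 4.87% in resting ones. Egfl7, a secreted endothelial matrix protein, stood at 1244 and 1238 CPM in cycling and resting control barcodes and at 1463 and 1626 CPM in the Maf LSEC-KO library. Kdr was at 2563 and 3458 CPM and at 2279.8 and 2810.1 CPM. Pecam1 (chr11:106654217-106750628), the junction protein CD31 that the rule used, was at 658 and 716 CPM and at 693 and 813 CPM. The lowest ratios of this group in the control belonged to Calcrl, the receptor subunit for adrenomedullin, at 370.3 and 729 CPM in the control and 182 and 272 CPM in the Maf LSEC-KO library, and to Clec14a, an endothelial surface lectin, at 560.0 and 1053 CPM in the control and 454 and 642 CPM in the Maf LSEC-KO library.

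**Figure D4:**
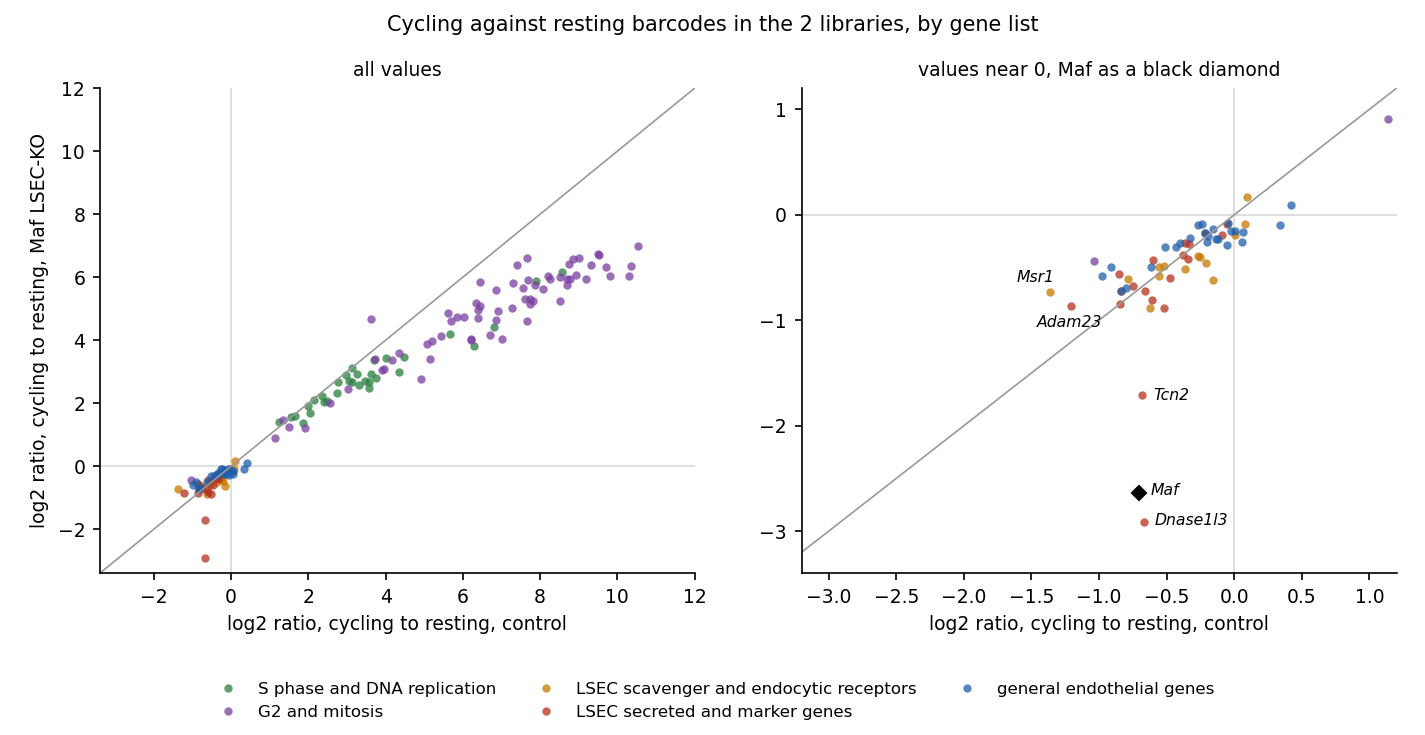
Log2 ratio of cycling to resting barcodes in the control (horizontal) and the Maf LSEC-KO library (vertical) for genes of 5 lists with at least 50 CPM in a set of both libraries, with the identity genes enlarged on the right and a grey line of equal ratios. Cycle genes lie far to the upper right and below the line, most identity genes lie between 0 and -1, and Dnase1l3 (-2.92), Maf (-2.64) and Tcn2 (-1.71) lie low in the Maf LSEC-KO library. The ratios of Dnase1l3 and Tcn2 were smaller in size among barcodes with 0 Maf UMIs, as given in the text.

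Slfn5, Tcp11l2 and Kdm5b were at least 2-fold lower in the cycling cells of both libraries, and none of them is an LSEC identity gene of the lists. Slfn5, an interferon-linked gene, was at 153 and 531 CPM in cycling and resting control barcodes and at 185 and 598 CPM in the Maf LSEC-KO library. Tcp11l2 was at 26.8 and 84.3 CPM and at 28.8 and 76.1 CPM, and Kdm5b, a histone H3 lysine 4 demethylase, at 22.3 and 57.4 CPM and 19.0 and 58.3 CPM. Below that size in the Maf LSEC-KO library, Il6st, the shared receptor chain gp130 for the IL-6 family, was at 758 and 1669 CPM in the control and at 343 and 609 CPM in the Maf LSEC-KO library. The nuclear RNA Malat1 was also lower, at 14350.2 and 25439 CPM in the control and 20798 and 29594 CPM in the Maf LSEC-KO library.

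Position along the sinusoid was read from zonated genes. Of 9 pericentral genes tested in the control, 2 were at least 2-fold lower in cycling barcodes (median log2 ratio -0.49), and of 5 in the Maf LSEC-KO library 0 were (median -0.23). Of 11 periportal genes tested in each library, 4 and 2 were lower (medians -0.86 and -0.57). Rspo3, the pericentral ligand that boosts Wnt signalling to hepatocytes, stood at 21.2 and 74.4 CPM in the control and at 5.26 and 11.8 CPM in the Maf LSEC-KO library. Wnt2, its partner ligand, was at 184 and 286 CPM and at 18.6 and 44.9 CPM. On the periportal side, Ntn4, a netrin of the basement membrane, was at 145 and 305 CPM and at 81.6 and 184 CPM, and Efnb1, an ephrin ligand, at 103 and 235 CPM and 184 and 336 CPM. Genes of both ends were thus among those lower in cycling barcodes.

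Within the cycling barcodes, those with more S-phase than G2 and mitosis UMIs had higher identity levels. The scavenger list summed to 17505 CPM in 15 such control barcodes and 12876 CPM in the other 47, and to 7563 CPM in 120 and 6379 CPM in 360 Maf LSEC-KO barcodes. The secreted and marker list summed to 27197 and 17574 CPM in the control and to 8676 and 7322 CPM in the Maf LSEC-KO library. For general endothelial genes the sums were 20387 and 17378 CPM, and 16710 and 16272 CPM. Median UMI totals of these subsets were 15214 and 14618 in the control and 23312 and 23314.5 in the Maf LSEC-KO library. Thinned to 8000 UMIs, the median barcode held 90 scavenger UMIs when cycling (quartiles 79.5 and 120.5) and 144 when resting (125 and 161) in the control, and 40 (30 and 50) and 54 (42 and 71) in the Maf LSEC-KO library.

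Compared across the libraries, cycling Maf LSEC-KO cells differed from cycling control cells in the same identity groups as resting cells did. Of 4785 genes tested between cycling barcodes, 256 (5.35%) were at least 2-fold higher and 240 (5.02%) at least 2-fold lower in the Maf LSEC-KO library. With CPM over all genes, mitochondrial and ribosomal protein genes included, the split was 133 higher and 340 lower, since that scale shifts the median log2 ratio of all genes by -0.19. Of 4411 genes tested between resting barcodes, 271 (6.14%) were higher and 215 (4.87%) lower. In cycling barcodes 8 of 14 scavenger receptors (median log2 ratio -1.10) and 14 of 21 secreted and marker genes (-1.57) were at least 2-fold lower, and in resting barcodes 8 of 14 (-1.06) and 15 of 21 (-1.51) were. The median over all genes was -0.004 in cycling and 0.09 in resting barcodes. Both comparisons set the same pair of libraries side by side.

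Single genes showed the size of these gaps. Stab2 had a Maf LSEC-KO over control log2 ratio of -3.02 in cycling and -2.99 in resting barcodes, Fcgr2b of -3.44 and -3.17, and Dnase1l3 of -6.53 and -4.28. Col13a1, a transmembrane collagen, went from 235 CPM in control to 6.21 CPM in Maf LSEC-KO cycling barcodes, and Wnt2 from 184 to 18.6 CPM. Cd36, the fatty acid and thrombospondin receptor, went the other way, from 929 to 1552 CPM.

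Genes of continuous and capillary endothelium were higher in cycling Maf LSEC-KO barcodes, 9 of 23 at least 2-fold with 1 lower (median log2 ratio 0.79), as in resting ones, where 10 were higher and 2 lower (0.86). Among all genes tested, 5.35% were higher and 5.02% lower in cycling barcodes, and 6.14% and 4.87% in resting ones. Ly6c1, a surface protein of continuous capillaries (chr15:75044018-75048830), had 0 UMIs in the 62 cycling control barcodes and stood at 8.23 CPM in resting control barcodes, against 491 and 631 CPM in the Maf LSEC-KO library. With a floor of 3 UMIs over the control cycling set, its level was at least 147-fold higher in cycling Maf LSEC-KO barcodes. At 3000 UMIs it was detected in 0 of 58 (upper limit 6.16%) and 1.28% of control barcodes and in 52.6% and 53% of Maf LSEC-KO barcodes. Cd34, the sialomucin lost from normal sinusoids, was at 51.3 and 28.2 CPM in the control and at 394 and 377 CPM in the Maf LSEC-KO library, and was detected at that depth in 10.3% and 6.05%, and 53.9% and 53.2%. In lymphocyte barcodes at the same depth, Ly6c1 and Cd34 were each found in 0 of 23 control and 1 of 45 Maf LSEC-KO barcodes. In the Maf LSEC-KO library Ly6c1 and Cd34 were thus detected in similar shares of dividing and resting cells, while 21 of 23 capillary genes had a log2 ratio of cycling to resting below 0 (median -0.20).

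Fcor, a repressor of the factor FoxO1, and Pcp4l1, a small calmodulin-binding protein, were among the genes with the largest ratios between cycling barcodes. Fcor was at 2.23 and 4.12 CPM in control and at 719 and 985 CPM in Maf LSEC-KO cycling and resting barcodes, a log2 ratio of 8.33 (6.48 to 11.38) between the cycling sets, where the control held 2 UMIs. Pcp4l1 was at 2.23 and 2.36 CPM in the control and at 554 and 626 CPM in the Maf LSEC-KO library. Mest, an imprinted gene of growing tissue, was at 161 and 91.4 CPM and at 854 and 811 CPM. Of 11 tip cell genes, which mark the leading cell of a sprout, 6 were at least 2-fold higher in cycling Maf LSEC-KO barcodes (median log2 ratio 1.07), among them Pdgfb, the ligand that recruits pericytes, at 27.9 and 147 CPM. Among all genes tested between cycling barcodes, 5.35% were higher. Within the libraries, 0 of 9 (control) and 0 of 11 (Maf LSEC-KO) tip cell genes were at least 2-fold higher in cycling than in resting barcodes, beside 10.2% and 6.65% of all genes tested, and 1 of the 9, Dll4, was lower.

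Early response genes also differed by library. Of 14 immediate early and heat shock genes, 11 were at least 2-fold higher in cycling and 12 in resting Maf LSEC-KO barcodes, with median log2 ratios of 1.66 and 1.57. Among all genes tested, 5.35% and 6.14% were higher. Fos was at 80.3 and 95.6 CPM in the control and 248 and 262 CPM in the Maf LSEC-KO library. Hspb1, a small heat shock protein, was at 79.2 and 78.2 CPM and at 485 and 559 CPM. Such genes respond to tissue dissociation too, and their part in the other differences between the libraries was not tested.

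**Figure D5:**
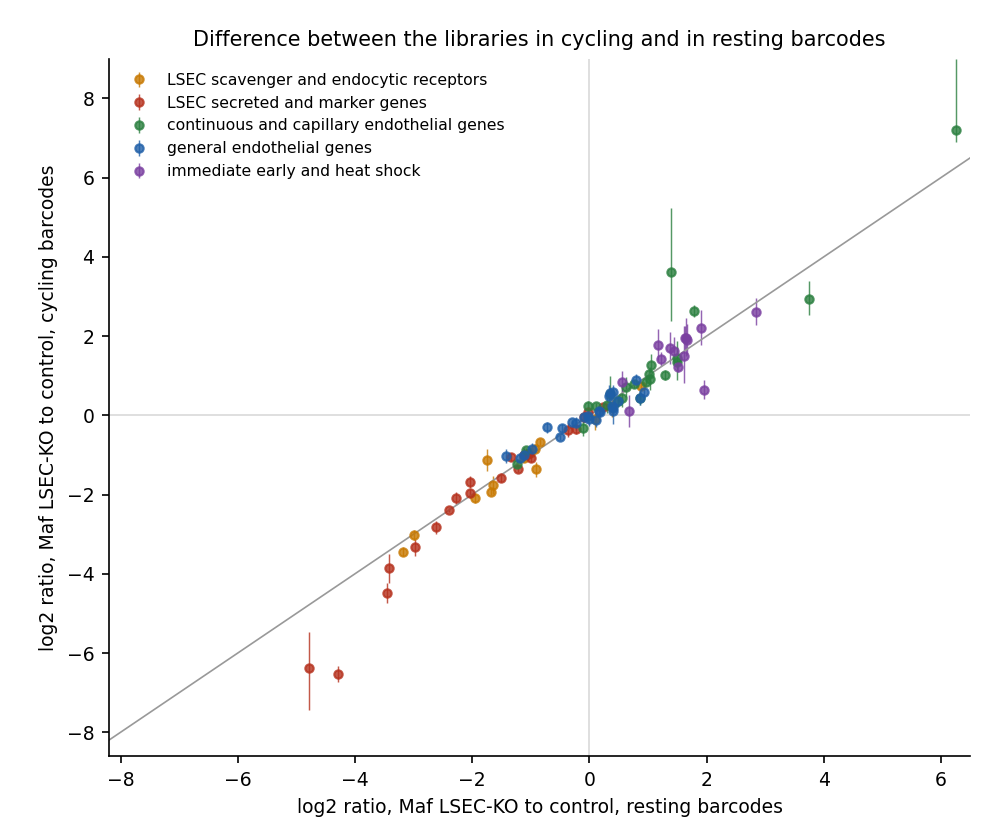
Log2 ratio (Maf LSEC-KO over control) in resting (horizontal) and cycling (vertical) barcodes with 95% counting intervals, for scavenger receptor, secreted, capillary, general endothelial and immediate early genes. Cd34 was at 3.74 in resting and 2.94 in cycling barcodes, Dnase1l3 was lower in cycling (-6.53) than in resting barcodes (-4.28), and the value of Ly6c1 is a lower bound because no UMI was seen in control cycling barcodes. These values include Maf LSEC-KO barcodes that held Maf UMIs. Without them the Dnase1l3 ratio of cycling to resting was smaller in size, as given in the text.

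The hepatocyte list summed to 3292 CPM in control and 3327 CPM in Maf LSEC-KO cycling barcodes, below the 4282 and 3927 CPM of resting ones, and Apoe made up 3165 and 3132 CPM of it. In the control, the Kupffer cell list stood at 94.8 CPM in cycling and 92.5 CPM in resting barcodes, the stellate list at 104 and 98.1 CPM and the platelet list at 34.6 and 19.7 CPM. In Maf LSEC-KO barcodes the same lists stood at 81.1 and 175, 37.2 and 53.9, and 30.1 and 32.5 CPM. In the control, the counting intervals of cycling and resting barcodes overlapped for the Kupffer cell and stellate lists, and the platelet list was higher in cycling barcodes. In the Maf LSEC-KO library the Kupffer cell and stellate lists were lower in cycling barcodes, and the platelet intervals overlapped. In cycling barcodes, the B cell and T and NK cell lists were at 3.35 to 22.9 CPM. At 0 UMIs in control cycling barcodes were 2 of 12 Kupffer cell genes, 6 of 8 B cell genes, 7 of 9 T and NK cell genes and 1 of 14 hepatocyte genes. The rule fixed Ptprc, Adgre1, Cd79a, Dcn and Vwf at 0 UMIs, so any of these in a list was at 0 by selection. The lymphatic list stood at 605 and 309.6 CPM in cycling barcodes and the large vessel list at 613 and 479 CPM. The cholangiocyte list, which was mostly Spp1 in the Maf LSEC-KO library, was at 1.12 CPM in cycling and 21.3 CPM in resting control barcodes and at 299 and 272 CPM in the Maf LSEC-KO library. Their part in the differences between the libraries was not tested. Hemoglobin and other erythroid genes were at 1.12 and 21.0 CPM in cycling against 1295 and 515 CPM in resting barcodes, where 10 control barcodes held 99.4% and 4 Maf LSEC-KO barcodes held 98.3% of these UMIs. Removing the highest doublet scores took out 4 and 41 cycling barcodes, and of the named ratios at least 2-fold those for Cd74, Serpina1c and the hemoglobin genes Hba-a1, Hba-a2 and Hbb-bs then changed direction, with values that stand in the closing part on processing.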

How the data were processed

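UMI counts per gene and barcode were deposited by the authors as whole numbers for 32285 genes, with barcodes of at least 500 UMIs, 1 library per genotype from CD146-selected cells of 3 pooled mice. The submitters' processing notes name mm10, Cell Ranger 6.0.2 and Seurat 5.0.1. The study's methods subtract the mean of empty droplets. These raw counts do not include that step and it was not applied here, so free RNA remains in them.

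Counts were read with Python 3.11.15, numpy 2.4.6, pandas 2.3.3 and scipy 1.17.1. Barcodes were classed by the rule given in the report, and UMIs were summed over the barcodes of each set and scaled to CPM outside 13 mitochondrial and 90 ribosomal protein genes. Genes with at least 50 CPM in either set were compared, and a 2-fold difference was the size named. With 1 library per genotype no test was run. Ratios carry exact Poisson and shares exact Clopper-Pearson intervals at 95%, which cover counting error only, and a set with 0 UMIs was given a floor of 3 counts. Shares were also read after thinning to 3000 UMIs, and S and G2/M sums after thinning to 8000. The intervals and ratios were tested on simulated counts. Scrublet (scanpy 1.11.5) gave each barcode a doublet score, and no barcode was removed by it in the main values. An alternative left out the 225 and 308 barcodes with the highest scores, the number expected at 4.53% and 5.67%. Figures were drawn with matplotlib 3.10.9.

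The 34 gene lists (625 genes, 622 matched) and the members were chosen with earlier results of these data known. Named genes were members of the lists and the rule's genes, and the 10 largest and 10 smallest ratios of each contrast. The genes and windows printed as promoters, from RefSeq (GRCm38.p6), came from the cycle lists and the rule. Gene positions came from GENCODE M21 on mm10, where 622 of 622 named identifiers matched. Alternatives changed the threshold, depth, scale, weight of barcodes, filters, doublets, mitochondrial share and Maf status. The lymphocyte barcodes read for free RNA, the limit of 30 UMIs of G2 and mitosis genes, the limit of under 10 erythroid UMIs and the variants of the S-phase balance were added after the data were seen.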

Additional observations from a re-analysis of the deposited data

Results flagged for a closer look

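Egr1, an early growth response transcription factor, differed between the libraries in how it went with cycling. It stood at 169.5 CPM in cycling and 81.1 CPM in resting control barcodes, a log2 ratio of 1.06 (0.82 to 1.30), and at 264 and 314 CPM in the Maf LSEC-KO library, a log2 ratio of -0.25 (-0.32 to -0.18). Of 156 named genes, 121 had at least 50 CPM in a set of both libraries, 7 of these had ratios of opposite sign with both intervals off 0, and Egr1 alone was at least 2-fold apart, by -1.31 on the log2 scale. When each barcode had the same weight, the control ratio was 0.82. The difference was not tested, since there is 1 library per genotype.

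Endothelial barcodes with a Vwf UMI were left out of the comparisons, yet 154 of 1083 of them (14.2%, 12.2% to 16.4%) held both Mki67 and Top2a in the Maf LSEC-KO library. In the control library 0 of 149 did, which allows a share of up to 2.45%. These Maf LSEC-KO barcodes had a median of 28040 UMIs.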

How the results depend on the processing

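No paired analysis was possible because the labels give 1 library per genotype and no replicate numbers, so no replicate could be left out either. The cycling share of the control stayed within its interval except under other definitions, at 4.14% with Mki67 or Top2a, 69.7% with at least 5 UMIs of G2 and mitosis genes and 2.86% with at least 30. In the Maf LSEC-KO library it was 10.5% when thinned to 3000 UMIs, 13% with at least 2 UMIs of both genes, 33.5%, 89.5% and 29.3% under the definitions above. A limit of 5 UMIs of that list is passed by most resting barcodes.

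Counts of genes at least 2-fold apart depended on the filter. With at least 20 CPM and with no filter, 768 and 1824 genes were higher and 151 and 711 lower in cycling control barcodes, 491 and 1176 higher and 42 and 989 lower in the Maf LSEC-KO library, and between cycling barcodes 555 and 1281 were higher and 396 and 1097 lower in the Maf LSEC-KO library. CPM over all genes gave 133 higher there. In barcodes with 10000 to 30000 UMIs 131 genes were lower in the control, and with equal weight per barcode 29 were lower in the Maf LSEC-KO library. Resting barcodes with at most 1 UMI of G2 and mitosis genes (361 and 57 barcodes, medians of 2586 and 2333 UMIs) gave 154 lower in the control, and 790 higher and 472 lower in the Maf LSEC-KO library. The share with more S-phase UMIs was 21.3% in the Maf LSEC-KO library with at least 2 UMIs of both genes.

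Of 182 named ratios at least 2-fold, 1815 recomputed values were obtained, of which 1740 kept that size and direction, 51 were smaller and 24 turned. Those that turned were Pttg1 in the control (0.89, low resting set) and the genes that follow. For cycling against resting Maf LSEC-KO barcodes these were Ccl21a (0.12, 0 Maf UMIs), Cd74 (-0.49 equal weight, -1.20 doublets out, -1.05 depth window, -2.23 low resting set, -0.92 at 0 Maf UMIs), Serpina1c (-0.19, -1.36, -1.26, -1.26 and -1.68 in the same order), Hba-a1 (0.53 doublets out, 0.82 depth window), Hba-a2 (0.026 doublets out) and Hbb-bs (1.44 and 0.73). Between cycling barcodes they were Cd74 (-0.26 doublets out, -0.35 depth window, -0.29 at 0 Maf UMIs) and Serpina1c (-0.86 equal weight, -1.44, -1.90 and -2.00). The cause was not tested. The scavenger median between cycling barcodes was -0.87 in the depth window, and the genes Calcrl, Id1, Fabp5, Dll4 and Ect2 fell under 2-fold in at least 1 alternative. The 62 control barcodes set the precision of every control cycling value.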

Other observations

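H2-K1, H2-D1 and B2m, which encode the class I molecule and its light chain, had log2 ratios of cycling to resting of 0.31, 0.10 and 0.09 in the control and of -0.11, -0.17 and -0.21 in Maf LSEC-KO barcodes. Of 8 MHC and immune genes tested in the Maf LSEC-KO library, Cd74, the invariant chain of class II molecules, was the 1 at least 2-fold higher in cycling barcodes (log2 ratio 1.41), and it turned lower in 5 alternatives, listed with the processing. Of 8 (control) and 9 (Maf LSEC-KO) basement membrane genes tested, which continuous endothelium deposits, 0 were at least 2-fold apart between cycling and resting barcodes. With so few genes, 0 is not far from the shares of all genes tested, 10.2% and 6.65% higher and 1.5% and 0.351% lower. Of 10 and 13 angiocrine ligands tested, which signal from endothelium to its neighbours, 3 and 1 were at least 2-fold lower in cycling barcodes. These counts stand beside the same 1.5% and 0.351%.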
